A study of Mus musculus with 6 samples.

Results

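The genes described here flank Meltf, the melanotransferrin gene, on mouse chromosome 16, and were read in whole-brain RNA from mice with and without melanotransferrin. The flanking set holds 58 genes, taken as a list of names, and every probe set annotated to exactly 1 of those names was kept, dim ones included. Each probe set combines several short probes against the same stretch of transcript. This gave 146 probe sets for 57 genes, out of 45037 probe sets on the array, while Tm4sf19 was named by no probe set in the annotation used here. Of the 57 genes, 42 had several probe sets, up to 8 for a gene, so that differences could be compared between probes of the same gene.

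The mice were 6 females of the same litter, aged 123 days, with brain RNA of each hybridised to its own Affymetrix mouse expression array. Of these, 4 were homozygous for the loss of melanotransferrin (MTf -/-, strain given as C57BL/6 - Lucy) and 2 carried the intact gene (MTf +/+, strain given as C57BL/6). The labels and design text do not say how the allele was made or what Lucy stands for. The mice are numbered by accession order, as names without meaning, and values are given for knockouts 1 to 4 and then wild types 1 and 2.

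Genes that lie close together on a chromosome are inherited together more often than distant ones, so the neighbours of a disrupted gene usually travel with the disrupted allele through a cross. Neighbours need not share a function. The genes around Meltf include kinases, synaptic scaffolds, membrane transporters, enzymes of the glycosylphosphatidylinositol (GPI) anchor, ubiquitin ligases, mucins and junction proteins. The comparison asked which of them differed between knockout and wild-type brain, probe set by probe set, and whether probe sets of the same gene moved alike.

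In gene order, counted in protein-coding genes of the RefSeq annotation of GRCm38.p6, the set ran from Lpp, 33 genes before Meltf, to Fam162a, 55 genes after it, with 20 of the 58 genes before Meltf and 38 after. The set made up 65.9% of the 88 protein-coding genes in that span. Dlg1 lay next to Meltf on the one side and Pigz on the other. Promoter windows, 250 bases before to 50 after an annotated start, were found for 51 of the genes in the RefSeq table. At least 10 CG dinucleotides stood in a window of 68.6% of these genes, against 45.8% of all 27025 genes with a window in that table. Those genes were not matched to the flanking genes by gene type, so the gap is not read as a trait of this set.

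Pigx and Cep19, at 6 and 7 genes from Meltf, were the only pair among the windowed genes that ran apart from starts within 1000 bases of each other. Their starts lay 62 bases apart, and their windows shared 161 bases. The window of Cep19 is shown because it holds the start region of both genes. It lies at chr16:32099539-32099838 of GRCm38.p6, plus strand, and has 30 CG dinucleotides. The capitals mark the bases that are also in the Pigx window.

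Cep19 promoter: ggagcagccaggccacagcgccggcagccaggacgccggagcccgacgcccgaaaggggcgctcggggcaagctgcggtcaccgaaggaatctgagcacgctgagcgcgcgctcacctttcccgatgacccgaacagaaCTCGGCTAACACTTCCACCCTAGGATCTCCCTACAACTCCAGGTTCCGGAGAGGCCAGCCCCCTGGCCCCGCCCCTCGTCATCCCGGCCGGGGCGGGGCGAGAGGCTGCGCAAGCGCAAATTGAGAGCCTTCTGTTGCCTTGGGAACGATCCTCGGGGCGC

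Cep19 encodes a centrosomal and ciliary protein, and Pigx a subunit of the mannosyltransferase that builds the GPI anchor. The only Cep19 probe set read 7200, 9337, 7008 and 8313 in the 4 knockouts against 9235 and 6907, with a log2 fold change of -0.014 (standard error 0.17). The brighter Pigx probe set read 1717, 1812, 2220 and 2170 in the knockouts and 2227 and 2118 in wild type, a log2 fold change of -0.14 (standard error 0.15). The groups overlapped on these probe sets. The dimmer Pigx probe set gave 321.9, 340.4, 236.8 and 263.1 against 178.8 and 232.2, with all knockouts above both wild types.

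The arrays were scaled by the authors to the same trimmed mean. Wild type 1 was the dimmest, with 24.5% of its probe sets under a signal of 49.6, against 17.6% to 20.2% on the others, and it gave the lowest of the 6 values for 41 of the 146 flanking probe sets (28.1%, against 31.0% of all probe sets). Brain cell markers were present on every array: the summed signal of 4 neuronal markers ran from 105080 to 141128. The summed signal of 6 cerebellar markers was 13335 in knockout 2 and 64815 to 96030 in the other mice. The granule cell receptor gene Gabra6 read 87.6 there against at least 6938 elsewhere. The summed signal of 3 pituitary hormone genes was 11032 in knockout 3 and 610 to 1092 in the others. Of 3 astrocyte markers, Gfap read 1819, 2043, 1911 and 2449 in the knockouts and 3806 and 2678 in wild type, Aqp4 5901, 4117, 5316 and 5881 against 9520 and 7085, both lower in every knockout, while the groups overlapped for Slc1a2. The log2 fold changes of the first 2 were -0.63 and -0.64 (limma adjusted p = 0.738 for each). The part of these differences in the results below was not tested, but counts are given below without knockouts 2 and 3 and wild type 1. In tissue RNA, fewer cells of a type and less RNA per cell cannot be told apart.

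Meltf itself had a single, dim probe set. It read 80.7, 132.9, 155.9 and 84.1 in the knockouts and 146.5 and 228.7 in wild type, so the groups overlapped (log2 fold change -0.55, 95% interval -1.38 to 0.29, exact permutation p = 0.2). Where its probes lie relative to the disrupted part is not given, and the value does not check the labels.

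No flanking probe set passed an adjusted p of 0.05 in limma, the linear model fitted to all 45037 probe sets, and neither did any other probe set on the array (0% called). The smallest adjusted p in the set was 0.738. With 4 mice against 2, the exact permutation test of a single value could not go below p = 0.0667, so it could not pass 0.05 either. At an unadjusted p below 0.05, 11 of the 146 probe sets (7.53%) read higher in the knockout and 2 (1.37%) read lower, against 4.92% and 1.84% of all probe sets. With median centring of the arrays the same counts were 2 higher and 7 lower of the 146. In both directions this was 6.16%, against 8.76% of all probe sets (1.78% higher and 6.97% lower). That scaling took the array-wide median of the log2 fold changes from 0.078 to -0.14. With quantile normalisation the counts were 6 higher and 1 lower, 4.79% in both directions, against 5.92% of all (3.20% and 2.72%). The counts that follow are out of the same 146, beside percentages of all probe sets. Without wild type 1 the count was a smaller share than that of the array. It was a larger share without wild type 2, and with knockout 2 and wild type 1 both left out. The count of 13 in both directions was 4 without wild type 1, where 3.61% of all probe sets were below 0.05. Without knockouts 1, 2 and 3 in turn it was 6, 8 and 8 (4.11%, 5.48% and 5.48%), against 5.90%, 6.04% and 5.78% of all. It was 19 without wild type 2, where 11.8% of all were below 0.05, and 8 with both knockout 2 and wild type 1 left out, against 3.48%.

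The median log2 fold change of the 146 probe sets was 0.032, against 0.078 over all probe sets and 0.054 over those with 1 gene symbol. For the brightest probe set of each of the 57 genes it was 0.0019, with 29 higher and 28 lower, against 0.024 over the brightest probe sets of all 18193 genes. All 4 knockouts lay above both wild types on 18 of the 146 probe sets (12.3%, against 11.3% of all probe sets), and below both on 5 (3.42%, against 4.81%). The set therefore read close to the rest of the array in both directions. The other named genes of chromosome 16 within the span gave 54 probe sets, of which 5 lay above and 3 below without overlap. These 54 held the lowest log2 fold change of all probe sets on the array, -3.14, on a dim probe set. Among the brightest probe sets of these genes the lowest was -0.77. The smallest limma adjusted p among the 54 was 0.534, and the cause of the low value was not tested. The rest of that chromosome gave 128 above and 58 below, of 1050.

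**Figure D1:**
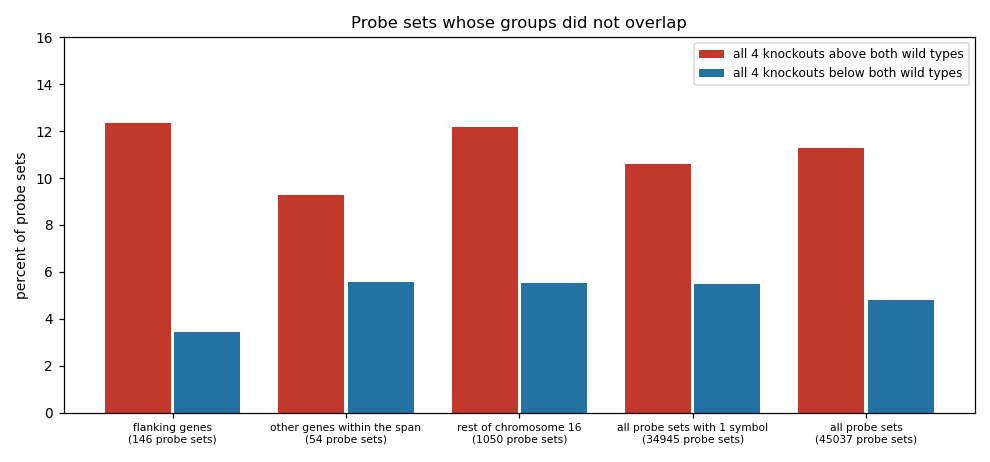
Bars give the percentage of probe sets whose 4 knockout signals all lay above (red) or all below (blue) both wild-type signals, for the genes flanking Meltf, the other genes within the span, the rest of chromosome 16, probe sets with 1 symbol and all probe sets. The flanking genes stand at 12.3% and 3.42%, beside 11.3% and 4.81% for all probe sets.

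By position, the 52 probe sets of genes before Meltf had a median log2 fold change of 0.054, with 1 at an unadjusted p below 0.05 and with 3 above and 2 below without overlap. The 94 probe sets after Meltf had a median of 0.028, with 12 below 0.05, 15 above and 3 below without overlap. Over all probe sets, 6.76% were below 0.05, 11.3% lay above and 4.81% below without overlap; the genes before Meltf had 5.77% above and 3.85% below, and those after it 15.96% and 3.19%. Within 15 genes of Meltf on either side, 45 probe sets had a median of 0.0019, 6 above (13.3%) and 1 below (2.22%), and the 101 farther ones a median of 0.062, 12 above (11.9%) and 4 below (3.96%). The difference between these groups of probe sets was not tested.

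**Figure D2:**
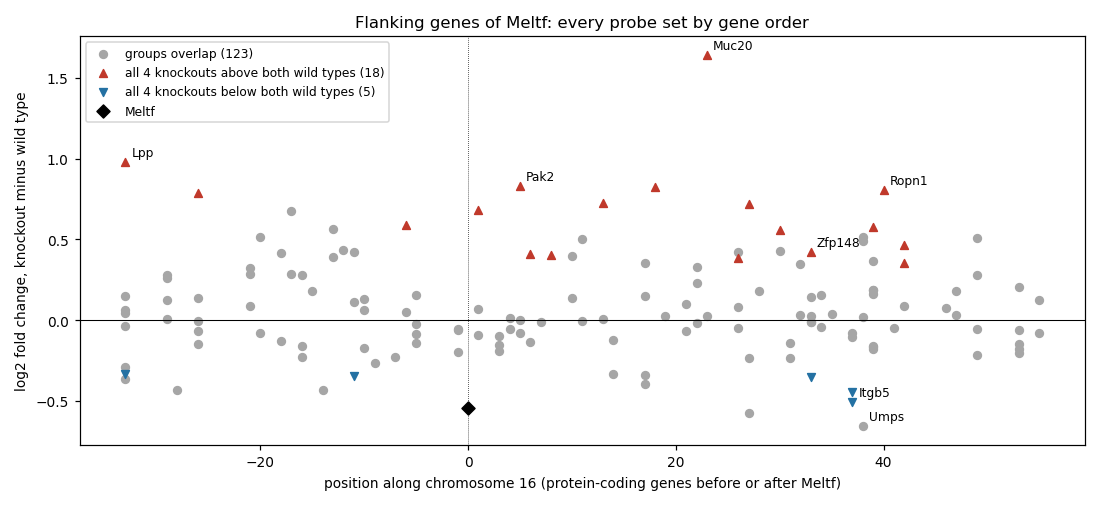
Each point is a probe set, placed by the position of its gene in protein-coding genes before (negative) or after Meltf, with its log2 fold change, knockout minus wild type, on the vertical axis. Red triangles (18) and blue triangles (5) are probe sets whose groups did not overlap, grey points those that overlapped, and the black diamond is Meltf at -0.55. The triangles are spread along the span from Lpp at -33 to Mylk at 42.

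The 95% intervals show what sizes the arrays could bound after the offset of 49.6 was added to the signals. For 47 of the 57 brightest probe sets, and for 102 of the 146 in all, the interval lay within a 2-fold change in either direction. The median half-width was 0.48 on the log2 scale for the brightest probe sets and 0.57 for all. These intervals are not adjusted for the number of probe sets. The offset also narrows the intervals of dim probe sets. For the 17 with a mean below it, 6 of them the brightest of their gene, a narrow interval does not bound the change in transcript. An example is Zdhhc19, with signals of at most 10.4 and an interval from -0.40 to 0.44.

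Among the immediate neighbours, Dlg1, which encodes a scaffold of synapses and cell junctions, read 5372, 6428, 5651 and 6073 in the knockouts on its brightest probe set and 7726 and 5872 in wild type, a log2 fold change of -0.20 (95% interval -0.52 to 0.13). Leaving out wild type 1 gave -0.0011, and leaving out wild type 2 gave -0.39. Its other 2 probe sets had -0.058 and -0.061, and the groups overlapped on all 3. Pigz, which adds a further mannose to the GPI anchor, read 717.7, 839.9, 681.6 and 925.3 against 767.8 and 923.5 on its brightest probe set, a log2 fold change of -0.095 (95% interval -0.51 to 0.32). A second Pigz probe set, 1441933_x_at, read 563.9, 506.8, 328.3 and 700.4 against 275 and 324.1. Here the lowest knockout stood just above the higher wild type, and the log2 fold change was 0.68 (standard error 0.29, unadjusted p = 0.044, limma adjusted p = 0.738). Affymetrix marks with _x_at probe sets whose probes can also match other transcripts. The remaining Pigz probe set had 0.068, with overlap.

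The kinases and regulators of small GTPases comprised 5 genes and 18 probe sets, 13 higher and 5 lower, with 2 below an unadjusted p of 0.05 (11.1%) and 5 above without overlap (27.8%). For this and the groups that follow, the shares over all probe sets were 60.3% higher, 4.92% higher with a p below 0.05 and 11.3% above without overlap. Mylk, the myosin light chain kinase, read 839.8, 1053, 1059 and 956.8 against 814.2 and 588 on its brightest probe set, so that the lowest knockout and the higher wild type nearly met. Its log2 fold change was 0.46 (standard error 0.19), or 0.24 without wild type 2. Its second probe set had 0.35, again without overlap, and the dimmest 0.085. Pak2, a kinase that acts downstream of Rac and Cdc42, read 134.1, 131.9, 165 and 264 against 72 and 73.5 on its dimmest probe set. There all knockouts lay above both wild types, with a log2 fold change of 0.83, or 1.78-fold with the added offset. Its brightest probe set, at 971.3 to 1162 in the knockouts and 1120 and 979.1 in wild type, overlapped.

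Kalrn, a guanine nucleotide exchange factor of dendritic spines, had 8 probe sets with log2 fold changes from -0.18 to 0.58. The brightest read 10429, 14040, 10095 and 9417 against 13314 and 11348, with overlap, a log2 fold change of -0.18, or -0.063 without wild type 1 and -0.30 without knockout 2. Only the seventh in brightness, with 258.8, 236, 173.2 and 131.5 against 100.7 and 129, was free of overlap. Acap2, which switches off Arf6, had 0.049 on its bright probe set and 0.59 on its dim one. Tnk2, a tyrosine kinase activated by Cdc42, had -0.067 and 0.10.

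The neuronal scaffold, channel partner, guidance and receptor genes gave 16 probe sets, 8 higher and 8 lower. Fgf12, an intracellular fibroblast growth factor that binds sodium channels, read 8134, 9148, 10581 and 9214 against 7733 and 9721 on its brightest probe set, a log2 fold change of 0.090, where wild type 1 was the lowest of the 6 and wild type 2 the second highest. Its other 2 had 0.32 and 0.29. Il1rap, the accessory chain of the interleukin-1 receptor, had 5 probe sets from -0.15 to 0.79. The highest of these read 261.8, 136.7, 301.9 and 251 against 127.3 and 98.5. Lrch3, a leucine-rich repeat protein, read 387.8, 353, 350.1 and 267.9 against 154.1 and 222.4 on 1443199_at, with a log2 fold change of 0.72 (standard error 0.29), while its brighter probe set had -0.24 and its dimmest -0.58. Sema5b, an axon guidance semaphorin, had 0.028 and 0.18.

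Among transport genes, with 12 probe sets, none was below an unadjusted p of 0.05. Atp13a3, a P5-type ATPase, read 1497, 1373, 1379 and 1422 against 2156 and 1530 on its brightest probe set, below wild type in all 4 mice (log2 fold change -0.35, 95% interval -0.70 to 0.0043), and 0.42 on another. Its relatives Atp13a4 and Atp13a5 had 0.28 and -0.13 on their brightest probe sets. Slc51a, a chain of an organic solute transporter, read 177.6, 169.3, 131.5 and 311.2 against 67.2 and 106.1, a log2 fold change of 0.82 with an interval from -0.045 to 1.69. Snx4, a sorting nexin of endosomes, differed by 0.029 on its brightest probe set, with an interval from -0.24 to 0.30, while Slc12a8, of the cation and chloride cotransporter family, was dim on both of its probe sets.

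Enzymes of lipids, anchors and glycans gave 13 probe sets, 6 higher and 7 lower. Pcyt1a, which makes CDP-choline for phosphatidylcholine, had 4 probe sets at -0.40, 0.35, 0.15 and -0.34 from the brightest to the dimmest, all with overlap. Osbpl11, an oxysterol-binding protein relative, had -0.14 and -0.23, and Xxylt1, a xylosyltransferase of Notch receptors, -0.23. Zdhhc19, a palmitoyltransferase gene, read at most 10.4 on any array.

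In the ubiquitin and SUMO pathway, Rnf168, the ubiquitin ligase recruited to DNA double-strand breaks, read differently on its probe sets. Its dimmer probe set, 1455586_at, read 380, 249, 440.2 and 390.6 against 215.2 and 180.3, so every knockout was higher (log2 fold change 0.72, standard error 0.30). Its brighter probe set read 2344, 2327, 3139 and 3170 against 2592 and 2807, with a log2 fold change of 0.0092 and the wild types in the middle of the knockout range. Fbxo45, a ubiquitin ligase subunit of synapses, had 0.14 and 0.39, Senp5, a SUMO protease, 0.014 and -0.057, and Ubxn7, a cofactor of the segregase p97, -0.12 and -0.33. All of these overlapped.

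Genes of RNA handling and the nucleus gave 20 probe sets, 8 higher and 12 lower, and held the smallest unadjusted p of the set. Zfp148, a zinc finger transcription factor, read 3561, 3636, 3183 and 3229 against 2557 and 2496 on 1449068_at, with the knockouts well clear of wild type (log2 fold change 0.42, standard error 0.12, unadjusted p = 0.0060, limma adjusted p = 0.738). On 1455483_at the order was the opposite: 1008, 1104, 925.3 and 899.7 against 1195 and 1342, a log2 fold change of -0.35 (standard error 0.15). The brightest of its 6 probe sets had 0.14 and the other 3 lay from -0.012 to 0.027, all with overlap. Fyttd1, an adaptor for mRNA export, read 2403, 2677, 2299 and 2032 against 1577 and 2014 on its brightest probe set, a log2 fold change of 0.38 (standard error 0.15), or 0.21 without wild type 1, and the lowest knockout nearly met the higher wild type.

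The remaining nuclear genes did not separate the groups. Ncbp2, the small subunit of the nuclear cap-binding complex, had -0.16, -0.19 and -0.099. Kpna1, an importin of nuclear transport, had 5 probe sets from -0.20 to 0.20. Hes1, a repressor downstream of Notch, had 0.18, and Lsg1, a GTPase of ribosome maturation, -0.27.

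Mitochondrial and metabolic genes gave 14 probe sets, 7 higher and 7 lower, none below 0.05 and none without overlap. Opa1, which fuses the inner mitochondrial membrane, read 8706, 9431, 9752 and 8072 against 11633 and 9470 on its brightest probe set, a log2 fold change of -0.23 (95% interval -0.54 to 0.092), or -0.078 without wild type 1 and -0.37 without wild type 2. Umps, the enzyme of the last steps of pyrimidine synthesis, had the lowest log2 fold change of the set, -0.66, on a probe set that read 506.3, 392.5, 243.9 and 125.3 against 660.8 and 343.7, so the groups overlapped. Its brightest probe set had 0.018. Fam162a, a mitochondrial protein induced by low oxygen, Ppp1r2, an inhibitor of protein phosphatase 1, and Pdia5, a protein disulfide isomerase, had -0.080, -0.14 and 0.075 on their brightest or only probe set.

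Among cilium and sperm genes, Ropn1, a protein of the sperm fibrous sheath, read 291, 260.7, 257.3 and 288.2 against 105.5 and 171.7, with every knockout above both wild types (log2 fold change 0.80, standard error 0.31, unadjusted p = 0.028). Iqcg and Ccdc14, genes of cilia and centrosomes, read at most 73.1 and 31.1 on any array.

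Adhesion, junction and mucin genes gave 30 probe sets of 12 genes, 19 higher and 11 lower. Muc20, a membrane mucin, had the highest log2 fold change of the set, 1.64 (standard error 0.48, unadjusted p = 0.0064), on a probe set among the dimmest 40% of the array that read 192.6, 80, 218.1 and 339.3 against 9.2 and 50.1. Both wild-type values lay near or under the added offset of 49.6, and the value depended on that choice: it was 0.80 with an offset 4 times larger and 2.43 with one 0.25 times as large. The brighter Muc20 probe set read 326.1, 234.1, 195.4 and 274.5 against 189.2 and 322.6, a log2 fold change of 0.025. Muc4, another membrane mucin, read at most 46.7 on any of its 3 probe sets.

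Itgb5, the integrin beta 5 chain, read lower in the knockout mean on all 4 of its probe sets at the deposited scaling. The log2 fold changes were -0.11, -0.079, -0.45 and -0.51 from the brightest to the dimmest. On 1456195_x_at the mice read 774.7, 892.7, 942.1 and 980.6 against 1407 and 1086 (standard error 0.17, unadjusted p = 0.027), where the log2 fold change was -0.27 without wild type 1. The dimmest gave 458.5, 501.9, 302.4 and 514.4 against 731.9 and 560.7. All 4 knockouts lay below both wild types on these, but the 2 brighter ones overlapped. Both 1456195_x_at and the brightest, 1456133_x_at, carry the _x_at mark of probes that can also match other transcripts.

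Lpp, a LIM protein of adhesions, had 8 probe sets, 4 higher and 4 lower, from -0.36 to 0.98. The highest, 1438271_at, read 219.8, 165.7, 203.1 and 247.9 against 81 and 81.1 (standard error 0.33, unadjusted p = 0.016), and every knockout was at least 2-fold above wild type on the deposited scale. The dimmest read 20.5, 10.8, 14.4 and 32.4 against 40.3 and 33.9, under the offset in every mouse. Nrros, which anchors latent transforming growth factor beta on microglia, read 361.5, 321.8, 330.6 and 488.2 against 263 and 274, a log2 fold change of 0.40 with an interval from -0.20 to 1.01. The summed signal of 4 microglial markers ran from 15470 to 20468 in the knockouts and was 19952 and 17847 in wild type.

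Among the rest of this group, Lmln, a metallopeptidase, read 406.2, 347.1, 363.8 and 446.6 against 196.5 and 310.7, and Heg1, Gp5, Lrrc15, Cpn2, Cldn1 and Cldn16 overlapped on every probe set. The tight junction gene Cldn1 had all 4 of its probe sets among the dimmest 40% of the array. Of the remaining genes, Wdr53, a WD repeat protein, read 1363, 1651, 1372 and 2111 against 898.4 and 1380 on its brighter probe set. Its log2 fold change was 0.50 (standard error 0.22, unadjusted p = 0.046, limma adjusted p = 0.738). Leaving out wild type 1 gave 0.21 and leaving out wild type 2 gave 0.80, and its other probe set had -0.0035. Of the 13 probe sets with an unadjusted p below 0.05 it alone had overlapping groups. Tmem44, Mb21d2 and Hspbap1 had 9 probe sets from -0.22 to 0.51, all with overlap.

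**Figure D3:**
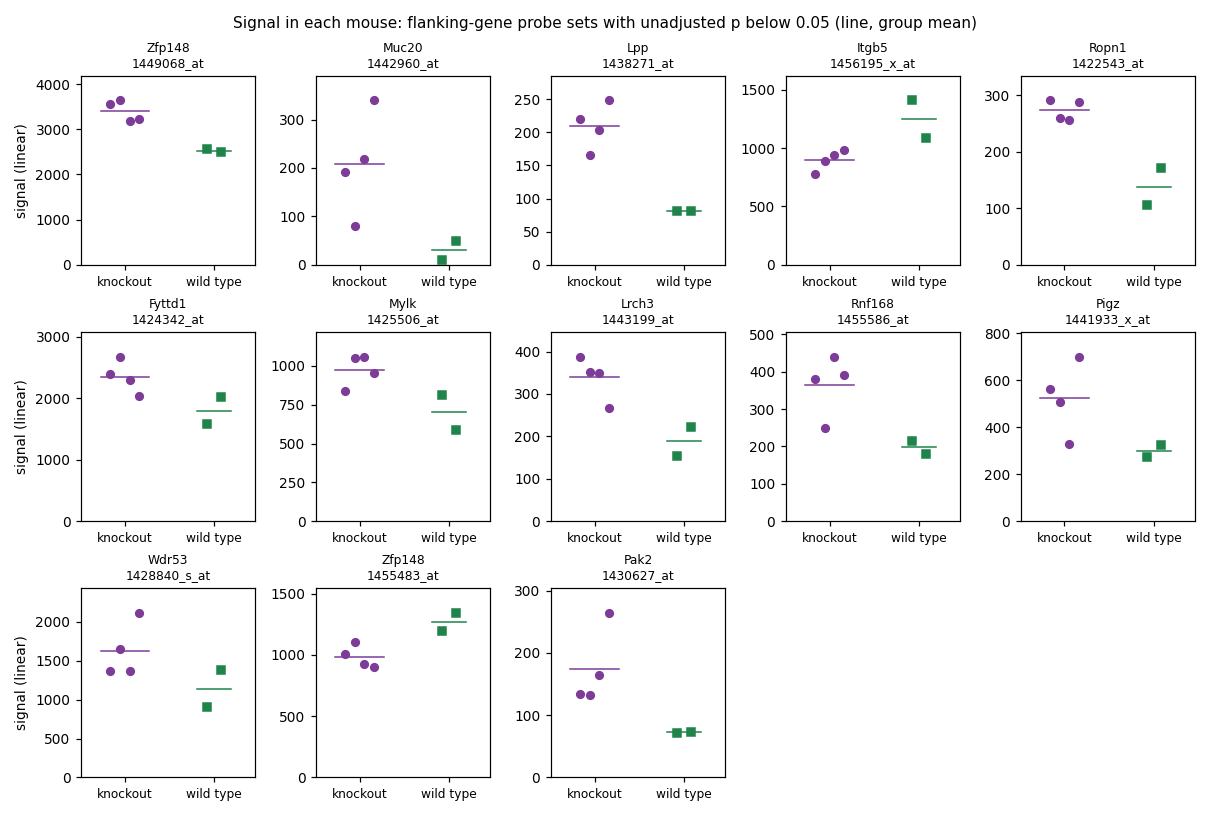
Deposited signal (linear axis from 0) in each mouse for the 13 probe sets of flanking genes with an unadjusted p below 0.05, 4 knockouts as circles and 2 wild types as squares, with lines at the group means. The groups are apart on all panels but Wdr53, and 8 of the 13 wild-type means lie under 1000.

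Of the 18 probe sets with every knockout above wild type, 14 had a wild-type mean under a signal of 300, and on 14 the dim array wild type 1 was the lower of the wild types. Of the 18, 6 were the brightest or the only probe set of their gene. They made up 10.5% of the 57 brightest probe sets, against 9.59% of the brightest probe sets of all genes. The 5 with every knockout below had a median wild-type mean of 1247, and on 4 of them wild type 1 was the higher of the wild types. The array-wide shares for a wild-type mean under 300 and for the order of the wild types were not taken. The part of the dim array in these counts was not tested beyond the counts without it given above.

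At the deposited scaling, of the 42 genes with several probe sets, 25 had log2 fold changes of both signs, 12 had them all above 0 and 5 all below 0. No gene had all of its several probe sets free of overlap on the same side. These counts were not made over all genes of the array, so whether they are particular to this set was not tested. Lpp and Zfp148 each had a probe set above and another below wild type without overlap.

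**Figure D4:**
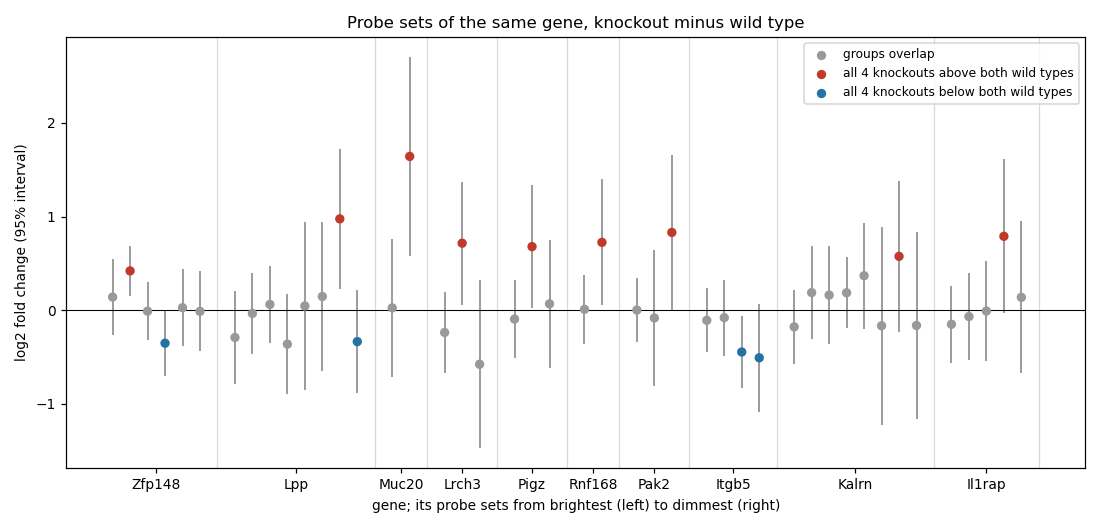
Log2 fold change, knockout minus wild type, with its 95% interval for each probe set of 10 flanking genes, ordered within a gene from brightest to dimmest. Points are red where all knockouts lay above both wild types, blue where all lay below, and grey where the groups overlapped. Zfp148 runs from 0.42 to -0.35 and Lpp from 0.98 to -0.36, and Itgb5 lies below 0 on all 4.

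To compare probe sets of the same gene directly, the dimmer was divided by the brighter within each mouse, and the log2 ratio, taken after the offset of 49.6 was added to both signals, was compared between groups. Percentages below are of the deposited signals, without the offset. The flanking genes gave 185 such pairs from 42 genes. None passed an adjusted p of 0.05 in limma over the 30372 pairs of the whole array, where 0% passed. At an unadjusted p below 0.05 stood 17 of the 185 (9.19%), against 7.08% of all pairs, and 41 (22.2%) did not overlap, against 15.4%. Pairs of a gene share probe sets and are not independent: 10 of the 41 belonged to Lpp and 9 to Zfp148, and all 5 Lpp pairs among the 17 contained 1438271_at. The count of 17 was 11 of 185 with quantile normalisation (5.95%, against 6.34% of all pairs). It was 9 of 185 without knockout 1 and 9 of 185 without knockout 3 (4.86% each, against 5.99% and 6.07%). With only pairs of probe sets outside the dimmest 40% of the array it was 14 of 117 (12%), against 8.50%. The next count is again out of all 185 pairs, and is a smaller share than the percentage over the array beside it. Without wild type 2 it was 16, against 12.8%, and 1 pair, of Pcyt1a, then passed with a limma adjusted p of 0.0269, beside 563 of all pairs. It was 10 of 89 when each probe set was set against the brightest of its gene only, against 7.75%, and 10 of 185 with knockout 2 and wild type 1 both left out, against 3.15%.

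The Zfp148 pair with opposite probe sets had the smallest p. The dimmer, 1455483_at, stood at 28.3%, 30.4%, 29.1% and 27.9% of 1449068_at in the knockouts and at 46.7% and 53.7% in wild type. The knockouts thus kept within a narrow range far below both wild types, with a difference of the log2 ratios of -0.77 (95% interval -1.19 to -0.35, unadjusted p = 0.0018, limma adjusted p = 0.670). Against the same probe set, probe set 1436217_at stood at 57.4% ± 2.82 (SD, n = 4) in the knockouts and 77.7% ± 3.08 (SD, n = 2) in wild type.

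For Lpp, 1438271_at stood at 54.2%, 50.5%, 48.0% and 47.4% of 1454899_at in the knockouts and at 13.8% and 15.9% in wild type, a difference of 1.34 (standard error 0.39). Against 1440167_s_at and 1436714_at the differences were 1.27 and 1.01. The knockouts were apart from wild type in each of these 3 comparisons, which all contain the same probe set, 1438271_at. The pair with the dimmest Lpp probe set, under the offset in every mouse, has no interpretable size.

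For Muc20 the dimmer probe set read 9.2 and 50.1 in wild type, under and just above the offset of 49.6. The difference between its probe sets depended on the choice of offset: it was 1.62 here, 0.79 with an offset 4 times larger and 2.40 with one 0.25 times as large. In Lrch3, 1443199_at stood at 42.4%, 38.3%, 56.2% and 32.2% of the brighter probe set against 17.0% and 21.5%, a difference of 0.95 (standard error 0.34). The dimmest Lrch3 probe set was under the offset in 4 of the 6 mice, and its pair is given no size. In Pigz, 1441933_x_at stood at 78.6%, 60.3%, 48.2% and 75.7% of the brightest against 35.8% and 35.1%, a difference of 0.77 (standard error 0.29). The groups did not overlap on the log2 ratio in any of these, and the limma adjusted p lay from 0.670 to 0.694 for the 10 pairs with the smallest p. In Rnf168, Il1rap and Kalrn, pairs outside those 10 and named for their non-overlap after the values were seen, the differences were 0.72, 0.94 and 0.55.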

How the data were processed

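Total RNA from the brain of each of 6 mice was measured on 1 array per mouse, so p-values measure the spread between mice and arrays together. The values are the authors' deposited intensities on a linear scale. GCOS 1.3 is named per the submitters' processing notes (not given in the sources used here: summary method, background correction, genome build). Every array had a trimmed mean (central 96% of its values) of 1000.0, so the deposited intensities had been scaled. The number of arrays limits the precision.

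Of 45101 probe sets, 64 controls were left out. In GEO's platform annotation 34945 of the other 45037 carried 1 gene symbol, 932 several and 9160 none. None of the flanking genes' symbols needed updating. An offset of 49.6, the 20th percentile of the table, was added before taking log2, which understates the change of dim probe sets, and no dim filter was applied. Of the 146 flanking probe sets, 107 (of 48 genes) would pass one that drops the dimmest 40% of the array, and 17 had a mean below the offset. Groups were compared with limma 3.58.1 in R 4.3.3 (lmFit, and eBayes with an intensity trend, 4 residual and 5.91 prior degrees of freedom, 2-sided), adjusting by Benjamini-Hochberg over all 45037 probe sets. Log2 ratios were fitted alike over 30372 pairs of probe sets with the same single symbol. Tables were made in Python 3.11.15, and the fits were tested on simulated data.

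The flanking genes, role groups and marker lists were chosen with earlier results of these data known. The rule for named values took Meltf, probe sets at an unadjusted p below 0.05, the 10 pairs with the smallest p, the brightest probe set of each role group, the nearest gene on each side, and genes with non-overlapping probe sets in opposite directions. Other values are named to account for the genes and were chosen after they were seen. Alternatives were other offsets, a dim filter, quantile and median scaling, no intensity trend, each array left out, pairs against the brightest probe set only, and, added after seeing the data, knockout 2 and wild type 1 left out together.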

Additional observations from a re-analysis of the deposited data

How the results depend on the processing

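No flanking probe set passed an adjusted p of 0.05 under any alternative run, and of the pairs only 1 did, under 1 alternative. The count of flanking probe sets at an unadjusted p below 0.05, 13 of 146, was 7 with quantile normalisation, 8 without knockout 2 and wild type 1 together, and 4 to 19 when each array was left out in turn. It lay from 9 to 13 under the other alternatives. The count of pairs, 17 of 185, was 11 with quantile normalisation, 10 without knockout 2 and wild type 1 together, 10 against the brightest probe set only and 9 to 16 with an array left out. Pairs past the adjusted threshold ran from 0 to 1 with an array left out, the 1 being Pcyt1a without wild type 2, where the lone wild type is assumed to vary like the knockouts. The cause of these shifts was not tested.

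Of 38 named values, 29 kept their sign under every alternative, including all 13 probe sets at an unadjusted p below 0.05 and all 10 named pairs. Those 13 and 10 were chosen by a small p in these same data, so their kept sign was largely fixed by that choice. Of the 13, 4 stayed below an unadjusted p of 0.05 in limma with median centring, 6 with quantile normalisation and 5 without knockout 1. Fits that leave 1 wild type are not counted here, and 4 was not the lowest over all alternatives. The dim filter removed 2 of the 13, those of Muc20 and Pak2, and 10 of the rest stayed below 0.05. With the larger and smaller offsets 11 and 12 did. The other 9 of the 38 named values changed sign. With an array left out, log2 fold changes ranged from -0.22 to 0.19 for Cep19, from -0.60 to 0.48 and from -0.20 to 0.085 for the Dlg1 probe sets 1445798_at and 1450768_at, from -0.075 to 0.25 for Fgf12, from -0.22 to 0.031 and from -0.14 to 0.28 for the Pigz probe sets 1440143_at and 1458306_at, and from -0.064 to 0.082 for Rnf168 1455585_at. Median centring gave -0.12 for Fgf12, -0.15 for Pigz 1458306_at, -0.20 for Rnf168, -0.19 for Snx4 and -0.074 for Zfp148 1449069_at. Quantile normalisation gave -0.070 for Pigz 1458306_at and 0.0092 for Cep19. Without knockout 2 and wild type 1, Fgf12 had -0.070, Pigz 1458306_at -0.14, Cep19 0.12 and Snx4 -0.00062. Dim probe sets limit what can be said: values near the offset are compressed, and 2 wild-type arrays set the spread of that group.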
